A study of Mus musculus with 5 samples.

Results

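The 9 genes described here, Rgs1, Rgs2, Rgs3, Rgs4, Rgs5, Rgs10, Rgs14, Rgs16 and Rgs19, encode regulators of G protein signalling (RGS proteins). They were taken as the probe sets whose annotated gene symbol was 1 of these names, which gave 21 of the 22690 probe sets on the array. The series set aortas of male db/db mice against those of db/+ mice, on Affymetrix expression arrays. The db/db mice were homozygous for the db allele of the leptin receptor gene Lepr (Lepr db/db, strain BKS.Cg-m +/+ Lepr db/J), and the db/+ mice of the same colony were heterozygous for it (Lepr db/+), so that every mouse carried at least 1 copy of the allele. All mice were 16 to 20 weeks old and on regular chow. Each array held the RNA of 6 pooled aortas, described as freed of adventitia and periaortic fat. There were 3 db/db arrays, called replicates 1 to 3 here, and 2 db/+ arrays, called replicates 2 and 3, so the spread between arrays is that between pools and not between mice.

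RGS proteins end signals from G protein coupled receptors. Their shared RGS domain speeds the hydrolysis of GTP by the alpha subunit of a G protein, which returns the subunit to its resting state. In the vessel wall this shortens the contraction that angiotensin, endothelin, noradrenaline and thrombin evoke through Gq and Gi. Rgs5 is a known marker of pericytes and arterial smooth muscle, and mice without Rgs2 are hypertensive. The members belong to 3 subfamilies. Rgs1, Rgs2, Rgs3, Rgs4, Rgs5 and Rgs16 are of the R4 type, mostly small proteins with little besides the domain, Rgs10 and Rgs14 belong to the type named after Rgs12, and Rgs19 is of the RZ type.

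Of the 21 probe sets, 15 standing for 7 genes had a mean signal above the filter on low signals (40.6) and were tested, and the other 6 lay under it. With limma and Benjamini-Hochberg adjustment over all 13574 probe sets tested, 0 of the 15 passed an adjusted p of 0.05, which 0.0958% of all tested probe sets did, and adjusted p-values lay between 0.31 and 0.99. At an unadjusted p under 0.05, 2 were lower in db/db and 0 higher, both of them probe sets of Rgs5, against 4.19% lower and 3.97% higher of all. Arrays of db/db lay below those of db/+ without overlap at 4 of the 15 and above at 1, against 12.0% and 13.0% of all probe sets tested. The median log2 difference (db/db minus db/+, on log2(signal + 16)) was −0.21 over the 15 probe sets and 0.02 over all tested, and 12 of the 15 were negative, against 47.1% of all. Probe sets annotated to the same gene are not independent of each other, and Rgs5 and Rgs4 supply 7 of the 15. Counted with the brightest probe set of each gene, 5 of the 7 genes were negative, against 46.1% of all genes, with a median of −0.04. On that count 0 of the 7 had an unadjusted p under 0.05 or passed the adjusted threshold, which 4.27% (lower), 4.36% (higher) and 0.121% of all 8261 genes did.

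**Figure D1:**
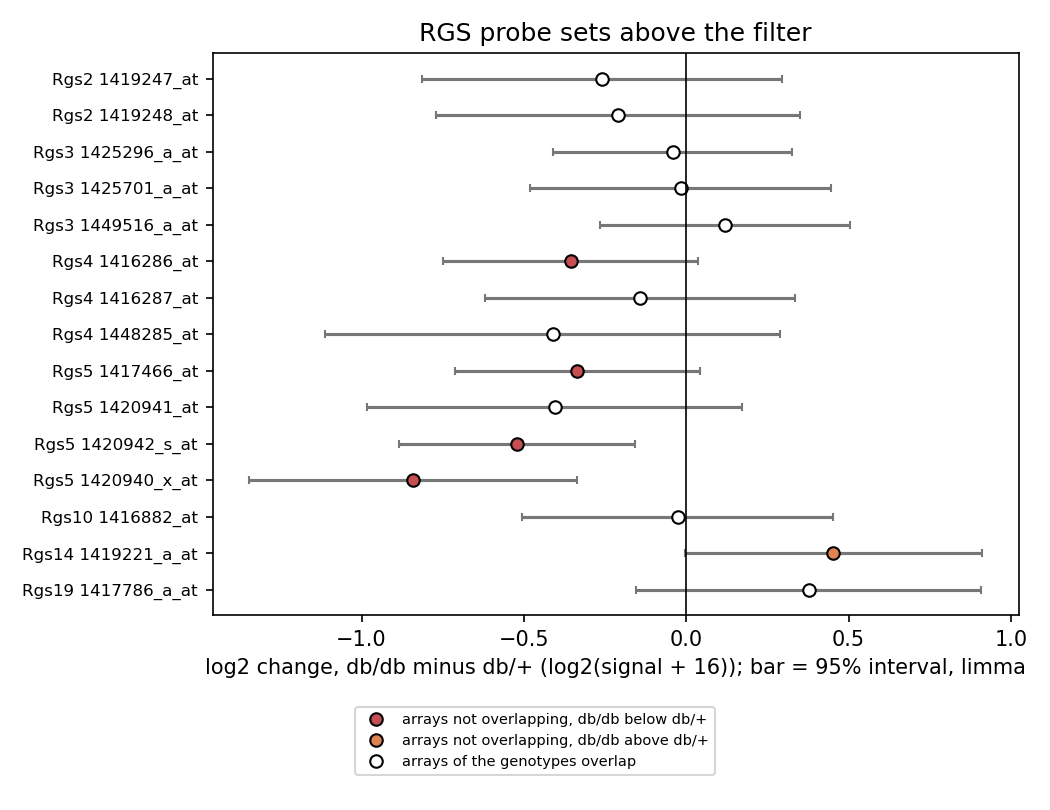
Log2 difference (db/db minus db/+, x axis) of each of the 15 RGS probe sets above the filter (y axis); bars are 95% intervals from limma and fill shows whether the arrays of the genotypes overlapped. Rgs5 and Rgs4 lie left of 0 at all 7 of their probe sets, Rgs14 and Rgs19 lie right of it, and adjusted p was 0.31 or more throughout.

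Rgs5 and Rgs4 are direct neighbours on mouse chromosome 1, with 0 protein-coding genes between them in the RefSeq table of assembly GRCm38.p6. The chromosome holds 11 of the RGS genes listed there, among them Rgs2, Rgs1 and Rgs16. The 250 bases before the annotated starts of Rgs5, Rgs4 and Rgs2 are shown because these 3 members are best known from smooth muscle and the first 2 are adjacent. Sequences are from RefSeq, build GRCm38.p6, on the coding strand and 5′ to 3′, and end at the last base before the start. Promoter entries were found for 7 of the 9 members. They lie at chr1:169655251-169655500 (plus strand) for Rgs5, chr1:169747643-169747892 (minus strand) for Rgs4 and chr1:144004150-144004399 (minus strand) for Rgs2.
Rgs5: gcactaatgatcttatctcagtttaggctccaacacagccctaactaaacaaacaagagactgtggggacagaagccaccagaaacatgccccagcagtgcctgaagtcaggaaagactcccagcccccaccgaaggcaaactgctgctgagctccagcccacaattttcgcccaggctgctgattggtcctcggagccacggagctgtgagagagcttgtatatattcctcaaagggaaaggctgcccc
Rgs4: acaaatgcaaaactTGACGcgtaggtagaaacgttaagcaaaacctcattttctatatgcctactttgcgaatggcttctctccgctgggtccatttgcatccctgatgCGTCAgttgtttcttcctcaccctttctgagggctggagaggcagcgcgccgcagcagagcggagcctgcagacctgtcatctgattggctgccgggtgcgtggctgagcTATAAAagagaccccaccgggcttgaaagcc
Rgs2: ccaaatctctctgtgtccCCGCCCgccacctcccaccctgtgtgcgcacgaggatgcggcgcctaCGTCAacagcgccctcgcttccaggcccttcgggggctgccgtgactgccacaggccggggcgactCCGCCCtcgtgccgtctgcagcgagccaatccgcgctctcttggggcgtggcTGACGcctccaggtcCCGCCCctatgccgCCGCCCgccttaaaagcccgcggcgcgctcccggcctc
Capitals mark matches on either strand to a TATA box (TATAAA, in 12.4% of 32817 such windows), the core of the cAMP response element (TGACG, 17.7%), an RBPJ site (TGGGAA, 21.6%), a GC box (GGGCGG, 32.7%) and the CArG box of serum response factor (1.47%). The Rgs4 window held a TATA box from 31 to 26 bases before the start and 2 cAMP response cores. The Rgs2 window held 4 GC boxes and 2 cAMP response cores. None of the 5 motifs was found in the window of Rgs5. No motif overlapped another in these windows, and a match describes the letters only.

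Rgs5 had a lower mean in db/db at each of its 4 probe sets, and none of them passed the adjusted threshold. The brightest probe set, 1417466_at, had signals of 3569, 2957 and 3080 in db/db replicates 1, 2 and 3, and of 3788 and 4293 in db/+ replicates 2 and 3. The arrays of the genotypes did not overlap, and the means were 3202 ± 324 in db/db, against 4041 ± 357 in db/+ (SD, n = 3 and 2), a log2 difference of −0.34 (SE 0.16, 95% interval −0.71 to 0.04, limma adjusted p = 0.66). Probe set 1420942_s_at had 914, 825 and 921 in db/db, against 1374 and 1187 in db/+. Here too the groups stood apart, with a log2 difference of −0.52 (SE 0.16, 95% interval −0.88 to −0.16, limma adjusted p = 0.41). Probe set 1420940_x_at, of a type whose probes can also read other sequences, had 846, 586 and 941 in db/db, against 1519 and 1297 in db/+. This was the largest difference among the tested member probe sets, a log2 difference of −0.84 (SE 0.22, 95% interval −1.35 to −0.34, limma adjusted p = 0.31). Probe set 1420941_at had 1305, 911 and 1286 in db/db, against 1968 and 1191 in db/+, so that db/+ replicate 3 lay within the db/db range. Its log2 difference was −0.41 (SE 0.25, limma adjusted p = 0.76) and came to −0.05 without db/+ replicate 2.

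**Figure D2:**
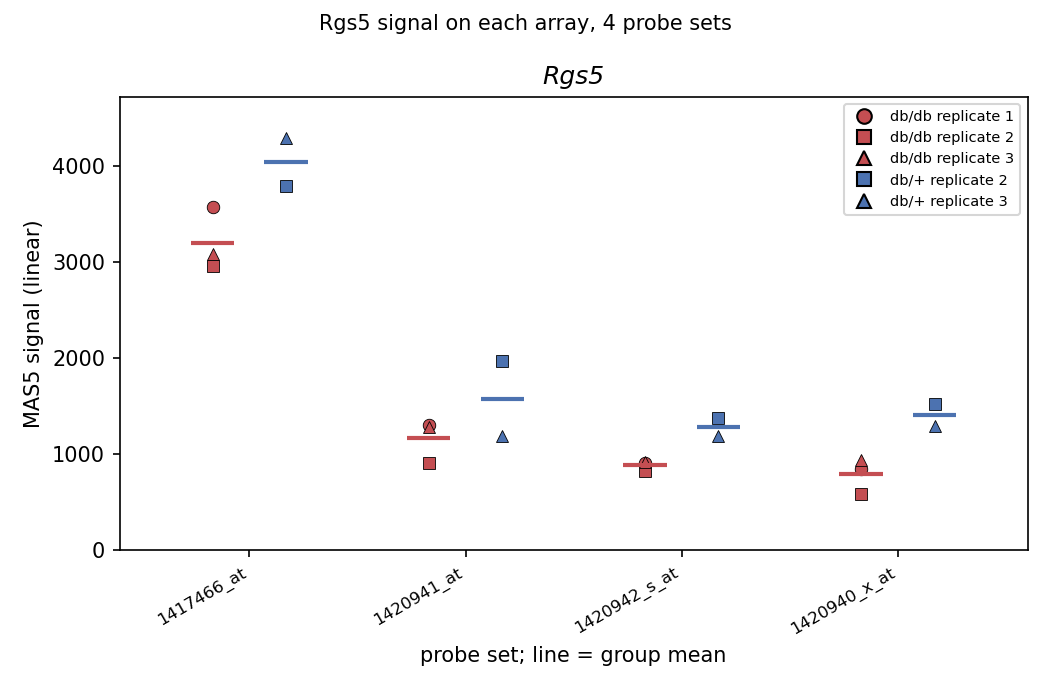
MAS5 signal of Rgs5 (linear y axis) on each array at its 4 probe sets (x axis), db/db left and db/+ right within each; lines are group means. The db/db arrays lie below both db/+ arrays at 3 of the 4 probe sets, and db/db replicate 2 is the lowest array at all 4.

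As the mean over its 4 probe sets, Rgs5 had log2 values of 10.4, 10.1 and 10.4 in db/db replicates 1, 2 and 3, and of 11.0 and 10.7 in db/+ replicates 2 and 3. The groups did not overlap, and the log2 difference was −0.53 (SE 0.17, limma adjusted p = 0.35 over 8261 genes). The exact two-sided permutation test over the 5 arrays gave p = 0.1, the smallest that 10 splits allow. Probe sets 1420942_s_at and 1420940_x_at ranked the 5 arrays in the same order, 1417466_at and 1420941_at each ranked them in another, and all 4 were lowest in db/db replicate 2. By root mean square difference of centred log2 values over the 5 arrays, the named genes most like 1417466_at were Pcmt1, which encodes a protein repair methyltransferase (0.023), the dipeptidase gene Cndp2 (0.026) and the glycosyltransferase gene Eogt (0.028). The other Rgs5 probe sets, at 0.17, 0.32 and 0.34, came 1502nd, 8540th and 9392nd among 12502 named probe sets. In these bulk samples fewer cells of a type and less RNA per cell cannot be told apart.

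Rgs5 was also set against markers of the cells that may carry it, within each array. Smooth muscle markers, all 10 of 10 measured and above the filter, had a median log2 difference of 0.19, with summed signals from 26977 to 32695 in db/db and from 24601 to 27785 in db/+. None of the 10 passed, at an adjusted or an unadjusted p under 0.05. Relative to their mean log2 value, Rgs5 was at −0.56, −0.82 and −0.37 in db/db replicates 1, 2 and 3, and at 0.27 and −0.02 in db/+ replicates 2 and 3. All db/db arrays lay below both db/+ arrays. The difference between genotypes was −0.71 (exact permutation p = 0.1, again the smallest that 10 splits allow). Pericyte markers had 8 of 9 genes measured and 6 above the filter, with Higd1b and Vtn under it, a median log2 difference of −0.07, and sums from 2184 to 2268 in db/db and from 2180 to 2352 in db/+. Of these 6, 4 had a negative log2 difference. The Notch receptor gene Notch3 had 343 ± 70.7 in db/db, against 460 ± 21.2 in db/+ (limma adjusted p = 0.64). Cspg4 and Cox4i2 were higher in db/db without overlap, with log2 differences of 0.27 and 0.28 (limma adjusted p = 0.73 and 0.79). Relative to this list Rgs5 was again below in every db/db array, with a difference of −0.50 (exact permutation p = 0.1). Endothelial markers, 10 of 10 measured, were lower in db/db at an unadjusted p under 0.05 at 7 of 10 genes, where 4.27% of all genes were, and at 0 of 10 at the adjusted threshold. Their sums ran from 1406 to 1798 in db/db and from 2190 to 2420 in db/+. Relative to the endothelial mean, the values of Rgs5 overlapped between genotypes, with a difference of −0.08 (exact permutation p = 0.7). Macrophage markers, 10 of 10 measured, were lower at an unadjusted p under 0.05 at 9 of 10 genes and at 0 of 10 at the adjusted threshold. They ran from 2551 to 3144 in db/db and from 4327 to 5623 in db/+. No marker of these 4 lists was at 0 on every array, and the part these cell types have in the Rgs5 difference was not tested.

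**Figure D3:**
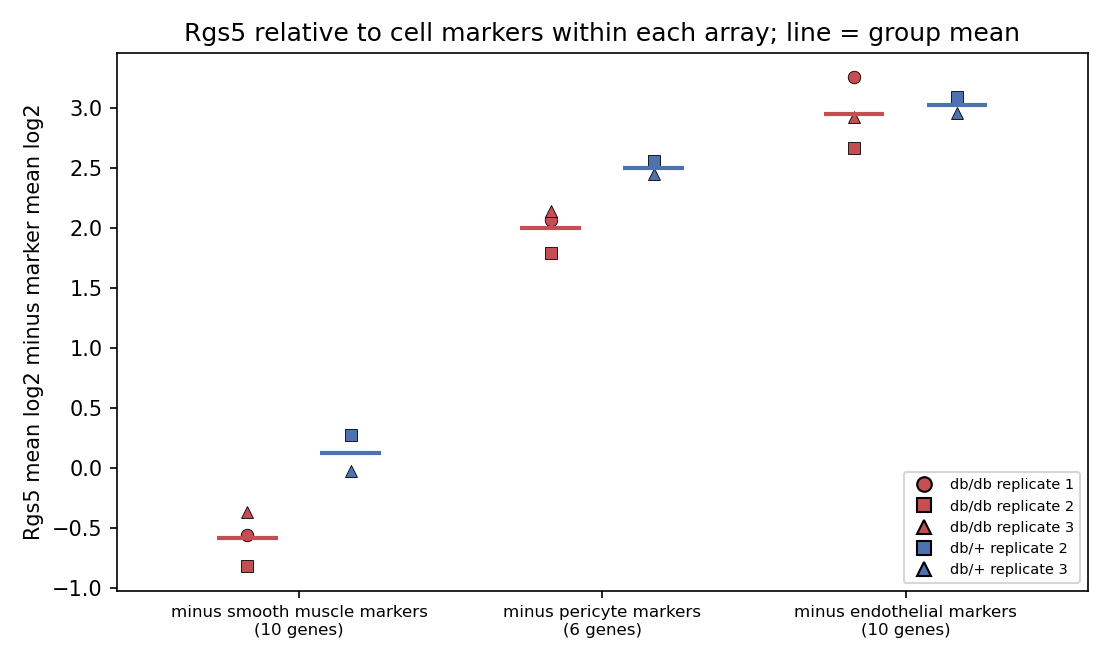
Mean log2 value of the 4 Rgs5 probe sets minus the mean log2 value of a marker list (y axis) within each array, for 3 lists (x axis), db/db left and db/+ right; lines are group means. Only the distance between arrays carries meaning, and db/db lies below db/+ for smooth muscle and pericyte markers and overlaps it for endothelial markers.

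Rgs4, which acts on Gi and Gq in brain, heart and smooth muscle, had 3 probe sets above the filter. At 1416286_at it had 547, 421 and 526 in db/db replicates 1, 2 and 3, and 657 and 620 in db/+ replicates 2 and 3. The groups did not overlap, and the log2 difference was −0.36 (SE 0.17, 95% interval −0.75 to 0.04, limma adjusted p = 0.66). At 1416287_at it had 435, 274 and 370 in db/db, against 369 and 416 in db/+, and at 1448285_at 108, 55.6 and 146 in db/db, against 141 and 127 in db/+. Both of these overlapped between genotypes, with log2 differences of −0.14 (SE 0.21) and −0.41 (SE 0.31). All 3 probe sets of Rgs4 and all 4 of Rgs5 had their lowest signal in db/db replicate 2. That array also had the highest summed signal of 10 cardiac muscle markers, 3695, against 525 and 773 in db/db replicates 1 and 3 and 1374 and 1021 in db/+ replicates 2 and 3. Its summed signal of 7 measured brown adipocyte markers was also the highest, at 8723. The other sums were 4555 and 7456 in db/db replicates 1 and 3 and 5683 and 6030 in db/+ replicates 2 and 3. Gene by gene, only Ucp1, Cidea and Cox7a1 were highest in that array. Dio2 and Zic1 were highest in db/db replicate 1, and Elovl3 and Ppargc1a in db/db replicate 3. The summed signal of 6 measured general adipocyte markers was highest in db/db replicate 2 too, at 9530. The other sums were 5487 and 7500 in db/db replicates 1 and 3 and 8787 and 8237 in db/+ replicates 2 and 3. Of these markers Fabp4, Cidec and Retn were highest in db/db replicate 2, while Adipoq, Lipe and Pparg were highest in a db/+ array. No marker of these 3 lists was at 0 on every array, and the part of heart or fat tissue in the low Rgs4 and Rgs5 values of that array was not tested. Without it the log2 differences of Rgs4 were −0.24, 0.03 and −0.08 at the 3 probe sets in the order given, and those of Rgs5 ranged from −0.64 to −0.24.

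Rgs2, which prefers Gq and is a target of the cGMP-dependent kinase, had 2 probe sets. At 1419247_at it had 189, 352 and 268 in db/db replicates 1, 2 and 3, and 337 and 296 in db/+ replicates 2 and 3. At 1419248_at it had 117, 210 and 208 in db/db, against 206 and 198 in db/+. The groups overlapped at both, and at both the lowest array was db/db replicate 1 while db/db replicate 2 was the highest. The summed signals of the cardiac muscle, brown adipocyte and general adipocyte markers given above were likewise lowest in db/db replicate 1 and highest in db/db replicate 2. At 1419247_at Rgs2 ranked all 5 arrays in the order of the cardiac and of the general adipocyte sums. Probe set 1419248_at did not, since it placed db/db replicate 3 above both db/+ arrays and these sums placed it below. Neither probe set followed the order of the brown adipocyte sum. The part of these tissues in the Rgs2 values was not tested. The log2 differences were −0.26 (SE 0.24, 95% interval −0.81 to 0.30, limma adjusted p = 0.86) and −0.21 (SE 0.25, limma adjusted p = 0.89). Without db/db replicate 1 they came to −0.04 and 0.04.

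**Figure D4:**
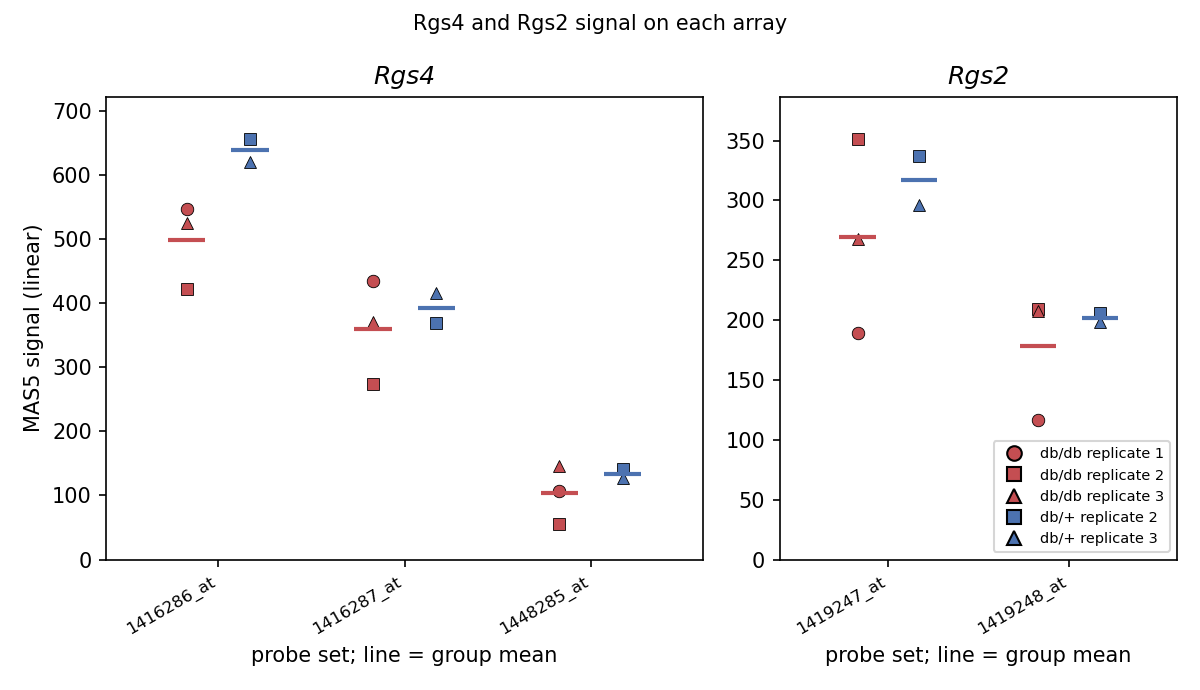
MAS5 signal (linear y axis) of Rgs4 at 3 probe sets and of Rgs2 at 2 (x axis) on each array, db/db left and db/+ right; lines are group means. Rgs4 is lowest in db/db replicate 2 at every probe set, and Rgs2 is lowest in db/db replicate 1 at both.

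Rgs3, the longest R4 member in its full-length form, which also exists in short forms, gave 3 probe sets above the filter with little difference. At 1425296_a_at it had 388, 314 and 342 in db/db replicates 1, 2 and 3, and 358 and 357 in db/+ replicates 2 and 3, a log2 difference of −0.04 (SE 0.16, 95% interval −0.41 to 0.33). At 1425701_a_at and 1449516_a_at the log2 differences were −0.02 (SE 0.20) and 0.12 (SE 0.17), and the groups overlapped at all 3. The fourth probe set, 1454026_a_at, read between 2.1 and 3.9 on every array. The remaining R4 members were under the filter at every probe set. Rgs1, a regulator of chemokine signals in lymphocytes and other white blood cells, had 14.1, 17.4 and 23.1 in db/db, against 33.5 and 16.4 in db/+. Rgs16, an inducible member that acts on Gi and Gq, had 9.4, 33.9 and 38.8 in db/db, against 28.0 and 32.4 in db/+ at its brightest probe set 1451452_a_at, and from 0.9 to 19.1 over all arrays at the other 2. Arrays overlapped at Rgs1 and at all 3 probe sets of Rgs16, and neither gene was tested.

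Among the members outside the R4 type, Rgs14 and Rgs19 had higher means in db/db without passing the test. Rgs14, which also binds inactive Gi subunits and small GTPases, had 141, 88.0 and 103 in db/db replicates 1, 2 and 3, and 74.9 and 75.2 in db/+ replicates 2 and 3. It was the only tested member whose db/db arrays all lay above those of db/+, with a log2 difference of 0.45 (SE 0.20, 95% interval −0.0044 to 0.91, limma adjusted p = 0.62). Rgs19, which acts on Gi subunits and also goes by GAIP, had 114, 76.2 and 63.2 in db/db, against 68.9 and 51.6 in db/+ at 1417786_a_at. The groups overlapped, with a log2 difference of 0.38 (SE 0.23, limma adjusted p = 0.76), and its second probe set 1434940_x_at read from 14.9 to 22.6, under the filter. Both genes were highest in db/db replicate 1. The summed signal of 8 measured lymphocyte markers was 981 in that array, against 469 and 441 in db/db replicates 2 and 3 and 389 and 386 in db/+ replicates 2 and 3. Of these markers 4 were above the filter and Cd3d, Cd3e, Cd3g and Cd2 were under it. Zap70 alone gave 440 of the 981. Cd3d was highest in db/+ replicate 3, Cd2 in db/db replicate 3 and the others in db/db replicate 1. The part of lymphocytes in the values of Rgs14 and Rgs19 was not tested. Without db/db replicate 1 the log2 differences were 0.29 for Rgs14 and 0.17 for Rgs19. Rgs10, a small member known from microglia, macrophages and platelets, had 134, 120 and 104 in db/db, against 96.1 and 152 in db/+, and the db/+ pair enclosed all db/db arrays. Its log2 difference was −0.03 (SE 0.21, 95% interval −0.50 to 0.45, limma adjusted p = 0.99).

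**Figure D5:**
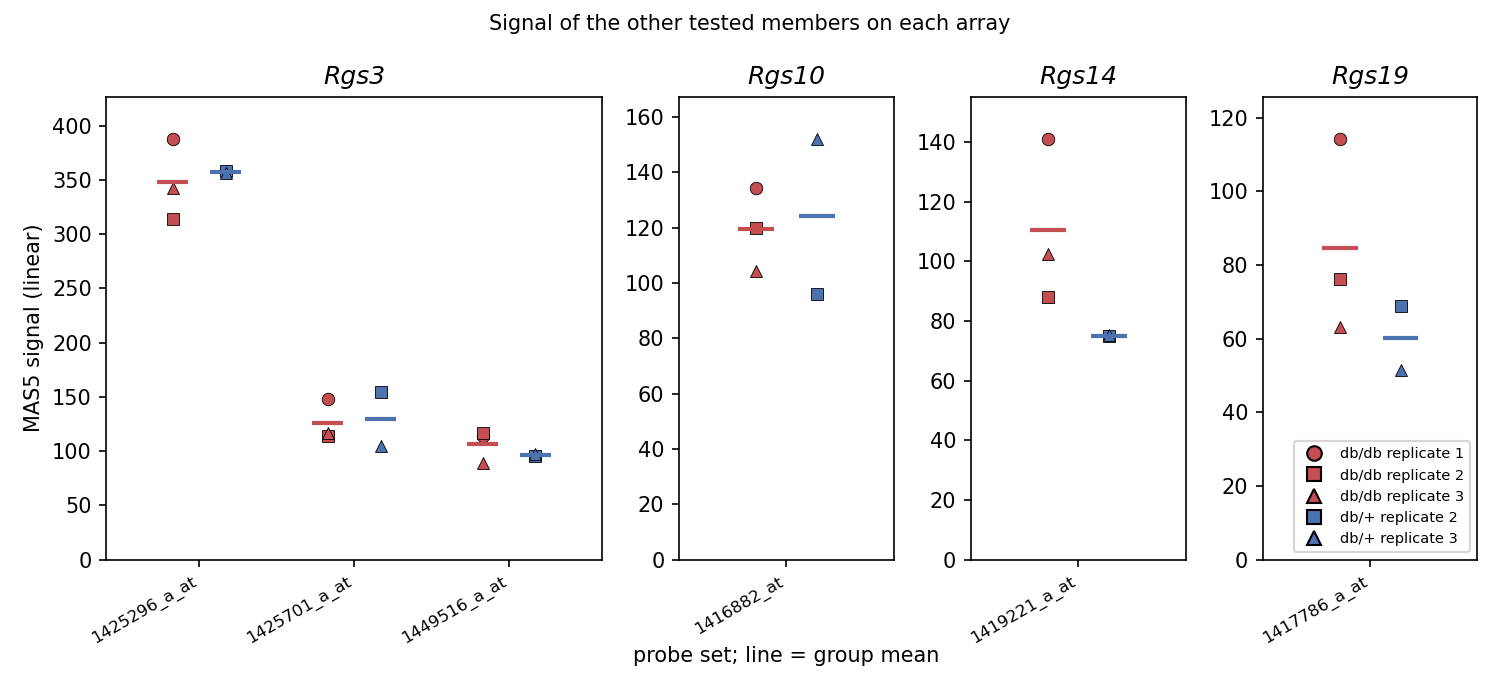
MAS5 signal (linear y axes, scaled per gene) of Rgs3, Rgs10, Rgs14 and Rgs19 at their probe sets above the filter (x axis) on each array, db/db left and db/+ right; lines are group means. All 3 db/db arrays of Rgs14 lie above the db/+ arrays at 75, and the other genes overlap.

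Of 12 further RGS genes, 8 had a probe set and 3 were above the filter, all of the R7 type known from neurons, where they pair with the beta subunit Gnb5. None passed the adjusted threshold, which 0.121% of all genes did. At an unadjusted p under 0.05, 1 was higher, Rgs7, and 0 were lower, against 4.36% and 4.27% of all genes. Rgs7 had 199, 301 and 248 in db/db replicates 1, 2 and 3, and 144 and 131 in db/+ replicates 2 and 3. The groups stood apart, with a log2 difference of 0.77 (SE 0.19, limma adjusted p = 0.29). Rgs9 and Rgs11 had log2 differences of 0.05 and −0.27, and Gnb5 had −0.15. At their brightest probe sets Rgs6, Rgs8, Rgs17, Rgs18 and Rgs20 lay between 0.6 and 40.9 on every array.

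The proteins on which RGS members act gave no call either, on the brightest probe set of each gene. Of the G protein alpha subunits, 12 of 13 had a probe set, 9 were tested, 0 passed and 0 had an unadjusted p under 0.05, with a median log2 difference of 0.10, against 0.02 over all 8261 genes. The smallest p-values there were those of Gnao1, Gnai2 and Gna11, with log2 differences of 0.36, 0.22 and 0.15. At an unadjusted p under 0.05, 4.27% of all genes were lower and 4.36% higher, against which the counts of the lists are given. Of the beta and gamma subunits 8 were tested and 0 passed, with 1 of 8 higher at an unadjusted p under 0.05, the gamma subunit gene Gng10 (0.43), followed by Gnb4 (0.17) and Gnb5. Of the G protein coupled receptors of vessel wall and blood cells, 27 of 39 had a probe set and 12 were above the filter. None passed at an adjusted or unadjusted p under 0.05, and the median was −0.09. The chemokine scavenger receptor gene Ackr3 had 337 ± 78.1 in db/db, against 448 ± 3.04 in db/+, a log2 difference of −0.42 (SE 0.20), the sphingosine phosphate receptor gene S1pr1 had −0.27 and the thrombin receptor gene F2r had −0.27.

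Among 17 tested effectors 0 passed and 1 was higher at an unadjusted p under 0.05, where 4.36% of all genes were. That gene was the inositol trisphosphate receptor gene Itpr2 (0.37), while the phospholipase gene Plcb1 had 0.46 and the adenylyl cyclase gene Adcy4 −0.70. Adcy4 was lowest in db/db replicate 1, at 15.2. It had 50.1 and 51.1 in db/db replicates 2 and 3, and 76.3 and 60.8 in db/+ replicates 2 and 3. Among 7 tested proteins that carry an RGS homology domain outside the family, 0 passed, with 1 lower (Axin1, a scaffold of Wnt signalling, −0.40) and 1 higher (the sorting nexin gene Snx14, 0.41) at an unadjusted p under 0.05, where 4.27% and 4.36% of all genes were, and the receptor kinase gene Grk6 had 0.54. Other G protein modulators had 0 of 7 past the threshold and 1 higher at an unadjusted p under 0.05. This was Gpsm2, which holds Gi subunits in their inactive form, with 305 ± 67.6 in db/db, against 166 ± 1.63 in db/+ (log2 difference 0.80, SE 0.21, limma adjusted p = 0.31), ahead of Gpsm1 (0.40) and Rasd1 (−0.24). Rgs4, Rgs5 and Rgs16 proteins are known to be degraded through an oxidised amino-terminal cysteine. Of the enzymes of that route, 5 were tested, with 0 past an adjusted or unadjusted p of 0.05 and log2 differences of −0.31 for the ligase gene Ubr4, 0.50 for Metap2 and 0.15 for the arginyltransferase gene Ate1. The Metap2 difference rests on db/db replicate 1, with 1090, against 318 to 390 on the other arrays. Several RGS genes are induced together with immediate early genes, of which 20 were tested with 0 past an adjusted or unadjusted p of 0.05. Klf4, Egr1 and Egr2 had log2 differences of −0.36, 0.50 and 0.41, and the summed signal of the list ran from 9145 to 17307 in db/db and from 10561 to 14564 in db/+. Egr1 and Egr2 were highest in db/db replicate 3, at 3473 and 106, against at most 1876 and 41.6 on the other arrays.

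Facts of the whole array set bear on all these values. Median signals lay between 58.9 and 61.4, and Pearson's r between the log2 values of 2 arrays, taken across genes, lay between 0.966 and 0.980. Lepr, the mutated gene, had 81.2 ± 9.67 in db/db, against 65.4 ± 8.70 in db/+ at its probe set above the filter (log2 difference 0.26, SE 0.17, limma adjusted p = 0.77). At 1425644_at, under the filter and not tested, it had 35.5, 23.3 and 23.7 in db/db replicates 1, 2 and 3, and 4.6 and 6.1 in db/+ replicates 2 and 3, without overlap, and at the third probe set the genotypes overlapped between 6.6 and 22.5. The mutation alters splicing and the position of the probes was not examined, so these values do not check the labels. Platelet markers ran from 666 to 824 in db/db and from 725 to 778 in db/+, nerve markers from 340 to 392 in db/db and from 357 to 385 in db/+, and fibroblast markers from 9583 to 11607 in db/db and from 9442 to 10992 in db/+. The brightest measured markers of brown adipocytes, general adipocytes and fibroblasts were Ucp1, Fabp4 and Dcn. Their mean signals over all arrays were 3017, 4252 and 4356, and how much fat or adventitia remained on the aortas was not tested.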

How the data were processed

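Linear signal intensities per probe set were deposited; the authors made them with MAS5, a tool named without version in the submitters' processing notes (per the labels). The 2% trimmed mean was 150.05 on every array, so no further normalization was applied. Genes were named from the platform annotation (1 symbol for 20380 of 22626 probe sets that were not controls, several for 691 and none for 1555), and 20351 of those named matched the RefSeq table of GRCm38.p6. Values became log2(signal + 16), which understates changes of low signals. Probe sets with a mean signal above the 40th percentile (13574) entered a linear model in limma 3.58.1 (R 4.3.3) with genotype as its only term, moderated by eBayes, two-sided and with 3 residual degrees of freedom, with Benjamini-Hochberg adjustment over all of them and a threshold of 0.05. Simulated arrays with known changes were used to test the fit. The members and lists were chosen with earlier results of these data known. All probe sets of members are given, then every other RGS gene and up to 3 genes of each list by smallest p, and mostly summed signals of the cell marker lists. Alternatives were other pseudocounts, filters, normalizations and variance models, a block by replicate number, array weights and leaving out each array.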

Additional observations from a re-analysis of the deposited data

How the results depend on the processing

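No RGS probe set passed under any of the alternatives run, and the lowest adjusted p among the 15 was 0.21 (Rgs5 1420940_x_at with a pseudocount of 64). Of the 15, 10 kept their direction throughout the alternatives on probe sets, Rgs5 and Rgs14 among them. The number of probe sets past the threshold over the whole array, 13, was 3 with a pseudocount of 1, 37 with 64, 1 with no filter, 35 with a filter at the 60th percentile, 41 with trend and robust eBayes, 48 with array weights, 22 with the replicate block and 49 at a threshold of 0.1, and with arrays left out in turn from 1 (without db/+ replicate 2) to 17 (without db/db replicate 1), with 2 without db/+ replicate 3 and 6 without db/db replicate 3. It was 25 genes when the probe sets of each gene were averaged, chosen after seeing the data, as was a filter on the mean of log2 values (11). The median over the RGS probe sets, −0.21, was −0.16 with a pseudocount of 64, −0.16 with array weights, −0.13 with the replicate block, −0.026 with probe sets averaged by gene, and from −0.27 (without db/db replicate 3) to −0.084 (without db/db replicate 2) with arrays left out. The labels tie equal replicate numbers to no shared litter or day, and deviations of same-numbered arrays correlated over probe sets with r = 0.11 (replicate 2) and 0.00051 (replicate 3). With the replicate block, where db/db replicate 1 adds nothing, Rgs2 1419248_at turned to 0.044 and Rgs9 to −0.020. With arrays left out, Rgs10 ranged from −0.32 to 0.27, Rgs2 1419248_at from −0.34 to 0.044, Rgs3 1425296_a_at from −0.12 to 0.027 and 1425701_a_at from −0.27 to 0.23, Rgs4 1416287_at from −0.29 to 0.032, and Rgs9 from −0.020 to 0.11. Averaged over its probe sets Rgs3 turned to 0.020. Macrophage markers, of which 0 passed, had 1 to 2 past the threshold under 4 alternatives. Leaving out a db/+ array leaves 1, assumed to vary like the others. The cause of these shifts was not tested. Signals under about 40.6 are understated as log2 differences, which bears on Rgs1 and Rgs16.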
